A study of Rattus norvegicus with 2 samples.

Results

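Immediate-early genes are switched on within minutes of a stimulus from factors that are already present in the cell. The levels of 10 of them (Fos, Fosb, Jun, Junb, Jund, Egr1, Egr2, Ier2, Atf3 and Nr4a1) were described by cell type in hypothalamic cells of female rats. The 10 genes were a given list, chosen as a measure of the response to tissue dissociation, and all 10 were among the 32883 genes listed in both libraries. Single-cell 3′ RNA sequencing gave 1 library for Control and 1 for SC300, each made from hypothalamic tissue pooled from 3 female Sprague Dawley rats at postnatal day (PND) 29, an age of 4 weeks. SC300 rats had received under the skin, at PND 0.5, a silicone capsule holding 300 µg of estradiol benzoate, an estrogen ester, and Control rats are titled intact in the labels and carried a capsule of oil without the hormone according to the methods. The labels name no genetic change in either group, the tissue covered the anteroventral periventricular and arcuate areas, and cells were freed by collagenase. With 1 library in each group there is no replicate, so no difference between Control and SC300 was tested: every interval below is a 95% interval of counting error, and the spread between rats cannot be seen in pooled tissue.

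Most immediate-early genes encode transcription factors. Fos and Fosb proteins pair with Jun, Junb or Jund to form AP-1, which binds DNA, and Atf3 belongs to the same bZIP family. Egr1 and Egr2 are zinc finger factors, Nr4a1 is an orphan nuclear receptor, and Ier2 is a short-lived nuclear protein. In the brain these genes are read as markers of neuronal activity, and they are also known to be induced in glia, above all in microglia, when living tissue is digested with warm enzymes. Transcription of many of them depends on the serum response element, bound by serum response factor, and on the cyclic AMP response element (CRE), bound by Creb.

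The files hold 4488 Control barcodes with 52004789 unique molecular identifiers (UMIs, which count captured transcripts) and 4524 SC300 barcodes with 57013099 UMIs. At least 200 detected genes were found in 4296 and 4379 of them, with a median of 7986 and 8182 UMIs. Barcode strings present in both libraries numbered 9. Cells were placed in 12 classes by marker genes that are none of the 10, and the 9 classes with at least 40 barcodes in each library were compared. They were astrocyte-like (1276 and 1411 barcodes in Control and SC300), neuron-like (449 and 435), microglia-like (443 and 427), mature oligodendrocyte-like (374 and 461), endothelial cell-like (335 and 299), oligodendrocyte precursor-like (319 and 318), ependymal cell-like (118 and 98), newly formed oligodendrocyte-like (106 and 113) and tanycyte-like (82 and 42), tanycytes being the elongated cells that line the floor of the third ventricle. A class is a range of marker scores and not a type. Between 0 and 14 barcodes per class and library had a second-best score at 0.65 to 0.7 of the best, just within the limit of 0.7. Of the barcodes in no class, 98 in Control and 84 in SC300 had a second-best score at 0.65 to 0.75 of the best. Among the 10 genes with the highest fold in each class were 1 to 5 of its own markers and 0 of any other class. The same markers assigned the classes, so this is no separate check of them. The next class stood closest in tanycyte-like barcodes, whose median ependymal score was 0.380 against a tanycyte score of 0.833, and barcodes in no class numbered 742 and 658. The median share of mitochondrial UMIs was 6.59% and 7.90% in microglia-like barcodes and between 9.52% and 17.3% in the other 8 classes, and it was higher in SC300 in all 9. Its part in the ratios below was not tested, beyond the values given with limits on it.

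Promoters were read from RefSeq on the GRCr8 build, from 250 bases before to 50 bases after the annotated start, and 7 of the 10 genes had an entry; Fos, Jun and Atf3 had none. These 3 are shown for different reasons. Among the 9 classes compared, Egr2 was by far highest in microglia-like cells and Jund was lower in SC300 in each. Ier2 holds the full CRE nearest to its start. Capitals mark a CRE (TGACGTCA) or a serum response element.
Egr2 (chr20:21054392-21054691, minus strand): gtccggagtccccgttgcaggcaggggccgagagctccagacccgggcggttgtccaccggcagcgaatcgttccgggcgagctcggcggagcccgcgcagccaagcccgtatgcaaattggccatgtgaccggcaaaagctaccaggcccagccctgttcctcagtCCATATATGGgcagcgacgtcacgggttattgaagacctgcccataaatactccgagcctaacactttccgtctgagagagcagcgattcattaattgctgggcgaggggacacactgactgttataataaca
Jund (chr16:18769722-18770021, minus strand): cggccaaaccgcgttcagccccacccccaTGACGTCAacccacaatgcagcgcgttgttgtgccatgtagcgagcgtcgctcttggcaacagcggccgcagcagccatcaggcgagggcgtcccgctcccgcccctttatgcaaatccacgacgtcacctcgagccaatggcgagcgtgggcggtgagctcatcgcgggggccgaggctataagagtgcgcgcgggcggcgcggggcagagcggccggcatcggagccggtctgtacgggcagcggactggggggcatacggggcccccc
Ier2 (chr19:40399123-40399422, plus strand): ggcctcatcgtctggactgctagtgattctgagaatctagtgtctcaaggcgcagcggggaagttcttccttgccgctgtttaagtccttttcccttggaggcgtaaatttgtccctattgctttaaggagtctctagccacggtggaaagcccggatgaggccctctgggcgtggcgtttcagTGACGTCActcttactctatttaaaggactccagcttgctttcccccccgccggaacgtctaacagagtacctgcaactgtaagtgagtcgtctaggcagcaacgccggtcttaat

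The letters TGACGTCA were found on either strand in 2 of the 7 promoters, Jund from -221 to -214 and Ier2 from -66 to -59 relative to the start, and in 1.83% of 33469 rat promoters of the same length. The serum response element was matched in Egr2 from -83 to -74, in Egr1 at 2 positions, and in 1.64% of all promoters. The core TGACG, which the CRE contains, was in 6 of the 7 and in 21.2% of all. TGACTCA, the AP-1 site, was in none of the 7 windows and in 4.63% of all, and GCGTGGGCG, an Egr site, was in Jund and in 0.544% of all. These matches describe the letters of a short window and carry no measurement of binding.

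Levels are given as UMIs of a gene per 1000000 UMIs of the class and library (CPM), first in Control and then in SC300. The 10 genes together held 178448 and 174160 UMIs. Microglia-like cells, the resident macrophages of the brain, had by far the highest summed level, 19394 and 17999 CPM. They were followed by endothelial cell-like (8219 and 6301 CPM; log2 of microglia-like over endothelial cell-like 1.24 and 1.51) and oligodendrocyte precursor-like cells (6266 and 5454 CPM). Next came tanycyte-like (2802 and 2208 CPM) and ependymal cells (2303 and 3144 CPM). Neuron-like cells, where these genes are most often studied, had only 1207 and 920.0 CPM and newly formed oligodendrocyte-like cells 749 and 787, and the lowest sums were in astrocyte-like (598 and 614 CPM) and mature oligodendrocyte-like cells (570.4 and 481 CPM). Microglia-like cells thus exceeded mature oligodendrocyte-like cells 34.0-fold in Control and 37.5-fold in SC300. Classes with too few barcodes for this order also had high sums. Stromal-like cells (11 and 35 barcodes) had 13158 and 9719 CPM and mural cell-like cells (27 and 41) 8022 and 7438 CPM. Macrophage-like cells (14 and 41) had 6168 and 14877.5 CPM. As a measure of microglial RNA in other classes, the 8 microglia markers were summed in the 9 classes compared. They were not summed in stromal-like, mural cell-like or macrophage-like cells. The sum reached 2854 and 2812 CPM in microglia-like cells, 16.9 and 16.4 CPM in endothelial cell-like and 35.1 and 44.7 CPM in precursor-like cells. It was at most 69.3 CPM in the rest of the 9. In endothelial cell-like cells that was 0.593% and 0.583% of the microglial level, and their summed immediate-early level was 42.4% and 35% of it. In astrocyte-like cells the same shares lay close together, 2.43% and 2.37% for the markers and 3.08% and 3.41% for the immediate-early genes, and in mature oligodendrocyte-like cells they were 2.05% and 2.15% against 2.94% and 2.67%. The same 8 markers were used to assign the classes, so their low sums outside microglia-like cells follow in part from that assignment. The part of free microglial RNA in the levels of those 2 classes or of any other was not tested.

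**Figure D1:**
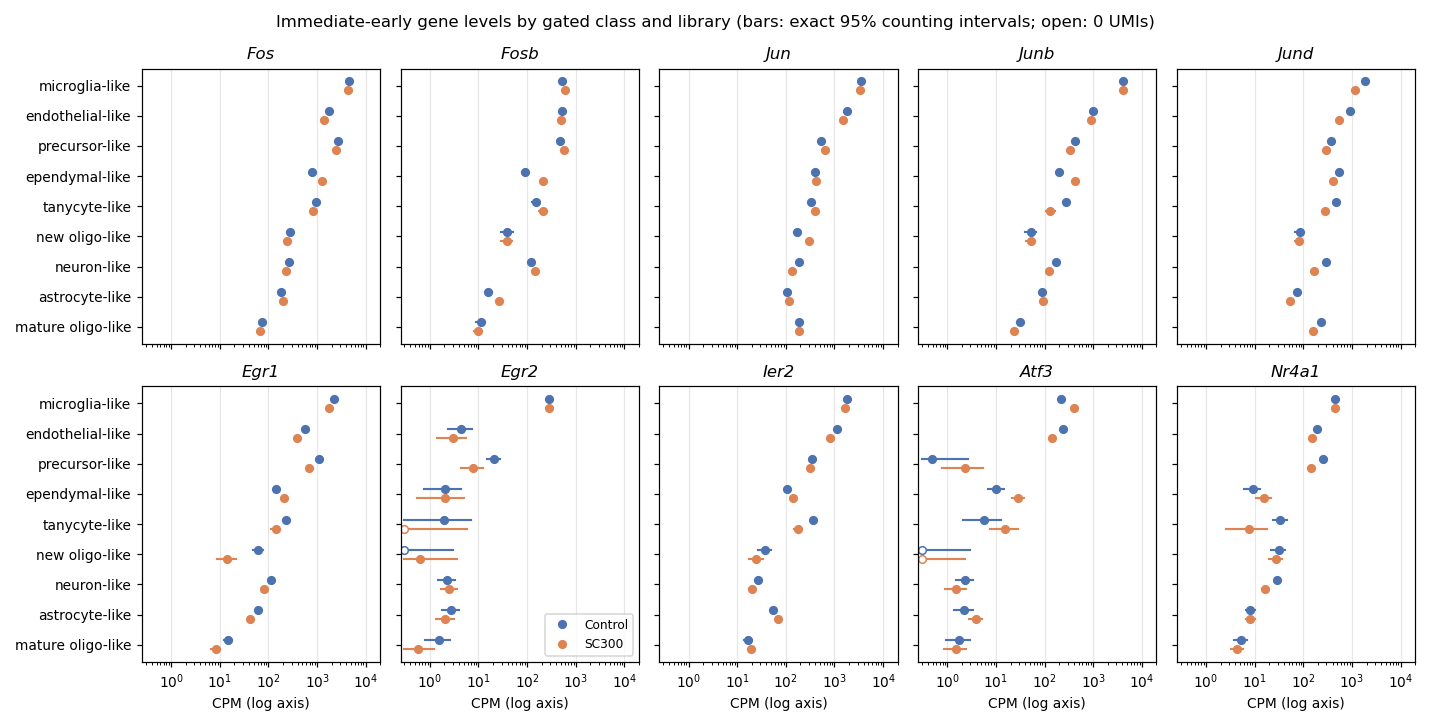
CPM of each gene (log axis) in the 9 classes, Control in blue and SC300 in orange, with bars for the exact 95% counting interval and open circles at the left edge for 0 UMIs. Microglia-like cells lead for 8 genes in both libraries, while Egr2 and Atf3 fall to a few CPM or less in most other classes.

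Fos, a subunit of AP-1, was at 4576 and 4350.4 CPM in microglia-like, 2736 and 2452 in precursor-like and 1778 and 1402 in endothelial cell-like cells. It was lower in the 2 ventricle-lining classes, at 955 and 835 CPM in tanycyte-like and 792 and 1279.8 in ependymal cell-like cells. Newly formed oligodendrocyte-like cells had 274 and 244 CPM, neuron-like cells 269 and 233, astrocyte-like cells 182 and 197 and mature oligodendrocyte-like cells 73.8 and 66.4. Every neighbour in this order was apart beyond its counting interval except newly formed oligodendrocyte-like and neuron-like cells, and ependymal and tanycyte-like cells changed places between libraries. Fosb, its close relative, was as high in endothelial cell-like (527 and 491 CPM) as in microglia-like cells (521 and 592 CPM), with intervals that overlapped in Control and not in SC300. Precursor-like cells had 466 and 579.8 Fosb CPM, tanycyte-like 151 and 213, ependymal 89.1 and 209 and neuron-like 118 and 147. The remaining 3 classes had between 9.98 and 39.2 CPM of Fosb.

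Junb, a Jun protein, had the largest step from the highest class to the next among the 8 genes detected in every class of both libraries, at 4068 and 4063 CPM against 1014 and 898 in endothelial cell-like and 415 and 335 in precursor-like cells. It was at 202 and 419.7 CPM in ependymal, 270.0 and 132 in tanycyte-like and 169 and 121 in neuron-like cells, and the order ended with astrocyte-like (88.8 and 94.3), newly formed (51.9 and 52.4) and mature oligodendrocyte-like cells (31.4 and 24.1). Jun reached 3474 and 3276 CPM in microglia-like and 1837 and 1489 in endothelial cell-like cells. Its lower range was narrow: neuron-like cells had 183 and 131 CPM, mature oligodendrocyte-like cells 185 and 185, newly formed ones 170.2 and 303 and astrocyte-like cells 107 and 116. The first 3 of these overlapped within their intervals in Control. Jun stood at 533 and 633 CPM in precursor-like, 405 and 422 in ependymal and 332 and 397 in tanycyte-like cells.

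Jund, the member of the Jun family that is expressed most steadily without a stimulus, had the flattest profile, with 24.7-fold and 22.2-fold between its highest and lowest class. It was at 1836 and 1174 CPM in microglia-like, 912 and 540.4 in endothelial cell-like and 543 and 415 in ependymal cells. Tanycyte-like cells had 468 and 285 CPM, precursor-like 377 and 294, neuron-like 296 and 167 and mature oligodendrocyte-like 229 and 161. Unlike most of the 10, Jund was lowest in astrocyte-like (74.4 and 52.9 CPM) and newly formed oligodendrocyte-like cells (84.7 and 82.4 CPM), and not in mature oligodendrocyte-like cells.

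Egr1, which is induced by growth factor signalling through the ERK kinases, was led by the same 3 classes as Fos, with 2192 and 1789 CPM in microglia-like, 1110.4 and 690.4 in precursor-like and 573 and 383 in endothelial cell-like cells. Next came tanycyte-like (225 and 140.2), ependymal (144 and 211) and neuron-like cells (112 and 80.8). Astrocyte-like cells had 62.1 and 42.7 CPM, newly formed oligodendrocyte-like 60.7 and 14.1 and mature ones 14.7 and 8.27. Egr2 was of a different kind. In microglia-like cells it reached 288 and 277 CPM, in precursor-like cells 20.5 and 7.53 CPM, and in each of the other 7 classes at most 4.4 CPM. No Egr2 UMI was found in Control newly formed oligodendrocyte-like cells or in SC300 tanycyte-like cells, where 3 UMIs would be 2.40 and 4.67 CPM.

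Ier2 was at 1769.8 and 1628 CPM in microglia-like and 1147 and 804 in endothelial cell-like cells, ahead of precursor-like (353 and 316) and tanycyte-like cells (359 and 181). Neuron-like cells, at 26.3 and 19.8 CPM, were below astrocyte-like cells at 54.2 and 70.6, the reverse of their order for Fos, Jun and Junb. Ependymal cells had 107 and 141 CPM, newly formed oligodendrocyte-like cells 36.8 and 24.9 and mature ones 16.9 and 19.4. Atf3, a factor of the stress response, was shared by endothelial cell-like (235 and 140.4 CPM) and microglia-like cells (219.8 and 409.9 CPM), whose intervals overlapped in Control and were apart in SC300. Ependymal cells had 10.1 and 28.7 CPM and tanycyte-like cells 5.81 and 15.6, and the remaining 5 classes at most 3.86. Across the oligodendrocyte lineage Atf3 was nearly missing, with 1 and 5 UMIs in precursor-like and 0 in newly formed oligodendrocyte-like cells, where 3 UMIs would be 2.40 and 1.92 CPM. Nr4a1 was at 449 and 439.6 CPM in microglia-like, 256 and 144 in precursor-like and 190.3 and 151 in endothelial cell-like cells. It lay between 4.37 and 33.9 CPM in the other 6, among them 29 and 16.2 in neuron-like cells.

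The mixture of the genes also differed between classes. As a measure that does not compare the capture of different genes with each other, the UMIs of a gene per Fos UMI were set side by side across classes. Mature oligodendrocyte-like cells had 2.50 and 2.78 Jun UMIs and 3.11 and 2.43 Jund UMIs per Fos UMI, whereas precursor-like cells of the same lineage had 0.195 and 0.258 of Jun and 0.138 and 0.120 of Jund. Newly formed oligodendrocyte-like cells lay between them, with 0.621 and 1.24 Jun and 0.309 and 0.338 Jund UMIs per Fos UMI. Neuron-like cells held the most Fosb per Fos UMI, 0.439 and 0.630, against 0.297 and 0.350 in endothelial cell-like, 0.114 and 0.136 in microglia-like and 0.0873 and 0.133 in astrocyte-like cells. For Junb the highest values were in microglia-like cells, 0.889 and 0.934, and the lowest, 0.152 and 0.136, in precursor-like cells. Within each library, the intervals of mature oligodendrocyte-like cells for Jun and Jund overlapped those of no other class.

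**Figure D2:**
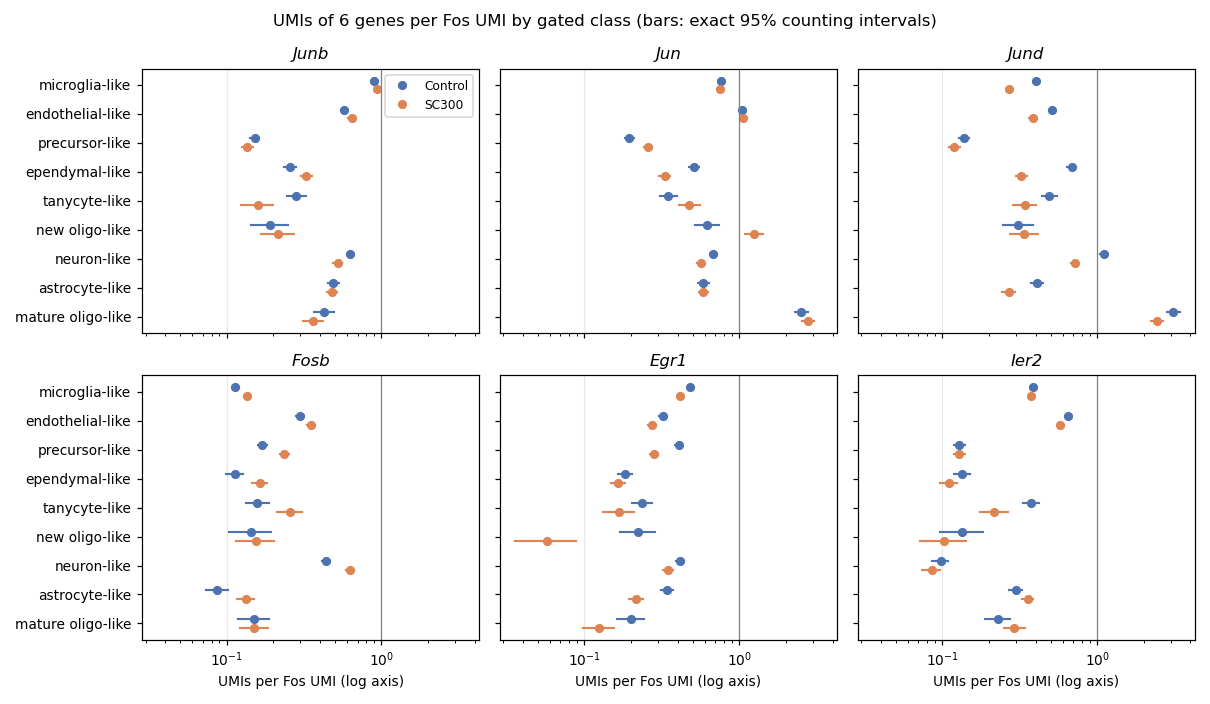
UMIs of Junb, Jun, Jund, Fosb, Egr1 and Ier2 per Fos UMI (log axis) in the 9 classes, with bars for exact 95% counting intervals and the grey line at equality. Mature oligodendrocyte-like cells stand to the right for Jun and Jund, at 2.50 and 2.78 for Jun and 3.11 and 2.43 for Jund in Control and SC300.

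Depth differs between cell types, so each barcode was thinned to 2000 UMIs before barcodes were counted. Barcodes with fewer UMIs were left out of the thinned counts, 369 in Control and 189 in SC300 over all kept barcodes. Of these, 125 and 60 were astrocyte-like. Microglia-like barcodes then held a median of 7 and 7 of the 10 genes and 35 and 31 UMIs of them, and 74.5% and 72.7% had 5 or more of the genes. The same share was 49.4% and 42.2% in endothelial cell-like, 35.4% and 30.4% in precursor-like and 7.24% and 3.70% in neuron-like barcodes. Cells without any of the 10 made up 4.45% and 3.11% of microglia-like barcodes, 43.5% and 43.6% of mature oligodendrocyte-like and 63.0% and 59.5% of astrocyte-like barcodes. A Fos UMI was found in 86.2% and 83.5% of microglia-like, 68.9% and 59.3% of precursor-like, 58.2% and 51.8% of endothelial cell-like and 33.3% and 26.6% of neuron-like barcodes. In mature oligodendrocyte-like barcodes it was in 9.37% and 8.71%. Unthinned, the microglial share was 87.6% and 86.7%. For Egr2 the thinned share was 27.6% and 26.6% in microglia-like and 3.93% and 0.321% in precursor-like barcodes.

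**Figure D3:**
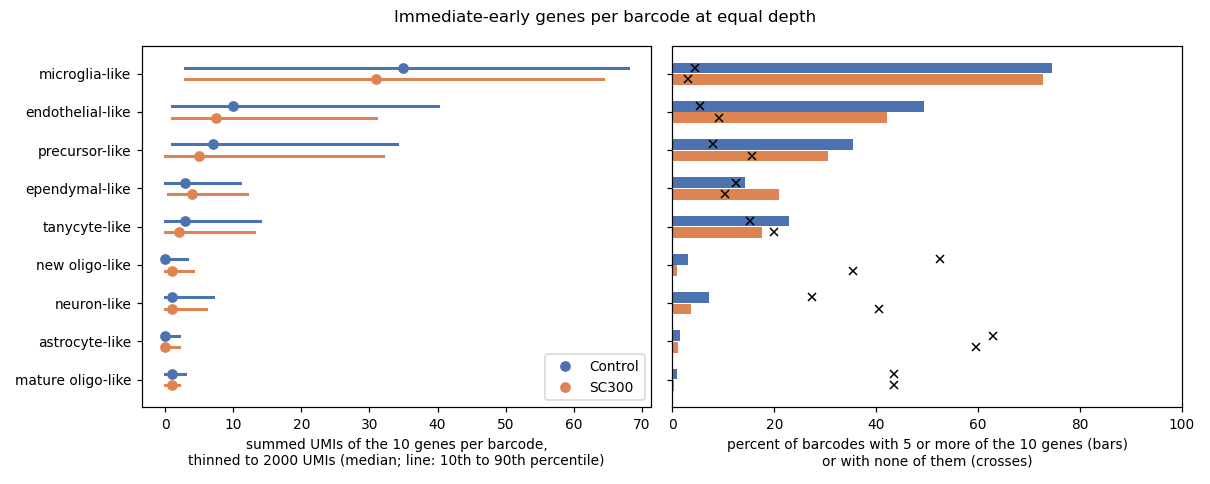
Left, summed UMIs of the 10 genes per barcode thinned to 2000 UMIs (point, median; line, 10th to 90th percentile); right, percent of barcodes with 5 or more of the genes (bars) or with none (crosses), by class and library. Microglia-like barcodes have medians of 35 and 31 UMIs and astrocyte-like barcodes of 0 and 0.

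Several of the genes were found more often in barcodes with Fos than in those without it, and this depended on the gene, class and library. In Control microglia-like barcodes at equal depth, Egr1 was found in 81.0% (95% interval 76.6% to 84.9%) of the barcodes with Fos and in 10.2% (3.82% to 20.8%) of those without it, and Ier2 in 83.7% (95% interval 79.5% to 87.3%) of the barcodes with Fos and in 10.2% (3.82% to 20.8%) of those without it. Among Control precursor-like barcodes Junb was in 48.1% (95% interval 41.2% to 55.1%) of the barcodes with Fos and in 4.21% (1.16% to 10.4%) of those without it. In neuron-like barcodes of Control, Fosb was in 40.1% (95% interval 32.1% to 48.5%) of the barcodes with Fos and in 8.81% (5.84% to 12.6%) of those without it, while Jund was in 44.2% (95% interval 36.0% to 52.6%) of the barcodes with Fos and in 38.0% (32.4% to 43.8%) of those without it, with intervals that overlapped. In SC300 neuron-like barcodes Jund was in 35.7% (95% interval 26.9% to 45.1%) of the barcodes with Fos and in 21.1% (16.8% to 26.0%) of those without it, with intervals apart. In Control microglia-like barcodes Jund was in 87.5% (95% interval 83.7% to 90.7%) of the barcodes with Fos and in 45.8% (32.7% to 59.2%) of those without it. Jun was there in 94.8% and 42.4%. In SC300 newly formed oligodendrocyte-like barcodes Jun was in 23.3% (95% interval 9.93% to 42.3%) of the barcodes with Fos and in 25% (16.0% to 35.9%) of those without it, and in SC300 mature ones Jund was in 32.5% (95% interval 18.6% to 49.1%) of the barcodes with Fos and in 28.4% (24.1% to 33.0%) of those without it. For Nr4a1 in Control astrocyte-like barcodes the shares were 1.43% with Fos and 1.29% without it, with intervals that overlapped. Barcodes of 1 library are cells of 1 pool and no replicates of a condition, so these shares describe the libraries.

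Microglia-like barcodes were further divided by the chemokine genes Ccl3 and Ccl4 and the cytokine gene Il1b, which are likewise induced in activated microglia; the dividing level, 10 UMIs of the 3 genes per 10000, was chosen after values were seen. The 322 and 320 barcodes at or above it had a summed immediate-early level of 22307 and 20501 CPM, and the 121 and 107 below it 7764 and 5311 CPM. Their median depths were 8478 and 9028 UMIs against 4935 and 5224. Nr4a1 differed most in proportion in Control, 553 CPM above the level and 35.5 below it, and Jun and Jund least, with 3844 and 3596 against 1997 and 1652 CPM for Jun. The barcodes low in chemokine genes were still above neuron-like and astrocyte-like cells in their sum. They were below endothelial cell-like cells in both libraries (8219 and 6301 CPM). Precursor-like cells, at 6266 and 5454 CPM, were below them in Control and above them in SC300. Neuron-like barcodes with GABA markers (the inhibitory transmitter; 263 and 238) had 1329.7 and 1064 CPM, and those with the glutamate transporter Slc17a6 (96 and 84) 848 and 711 CPM. Fos stood at 312 and 289.9 CPM against 144 and 174, whereas Ier2 was at 25.8 and 24.9 CPM against 23.5 and 16.2.

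Sums also moved with the mitochondrial share of a barcode, a sign of damaged cells. In precursor-like barcodes the summed level was 7338 and 6957 CPM at 10% mitochondrial UMIs or less, 5709 and 5123 CPM between 10% and 20%, and 1253 and 505 CPM above 20%, the last with 10 barcodes in each library. Astrocyte-like barcodes had 1046 and 815, 503 and 753 and 274 and 162 CPM in the same bins. Neuron-like barcodes of Control held 1307, 1161 and 1179.9 CPM, and endothelial cell-like barcodes of Control peaked in the middle bin at 9322 CPM. In SC300 the endothelial values were 5972, 6468 and 5621 CPM. The sums of precursor-like and astrocyte-like barcodes were thus lower in each higher bin of both libraries, and those of neuron-like and endothelial cell-like barcodes were not.

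SC300 was then set against Control as log2 of the ratio of CPM, a negative value being lower in SC300, for the 79 gene and class pairs with at least 50 UMIs in both libraries together. A ratio is named apart when it is past 1.5-fold and its interval excludes equality. By that rule 8 pairs were higher, 14 lower and 57 neither, with a median of -0.16. All pairs come from the same 2 libraries and are not independent of one another. Over all kept barcodes the rule took 2.43% of genes as higher and 3.43% as lower, and of the 10 only Jund was past it. The summed level there was 3473 and 3088 CPM, a log2 ratio of -0.17 (95% interval -0.18 to -0.16). Among barcodes of at most 10% mitochondrial UMIs, 1604 in Control and 1175 in SC300, it was 0.32. A sum over all barcodes also depends on how many come from each class, and that part was not tested. Under this limit 406 and 351 barcodes were microglia-like and 108 and 45 neuron-like. The summed ratio within microglia-like cells was then -0.11.

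**Figure D4:**
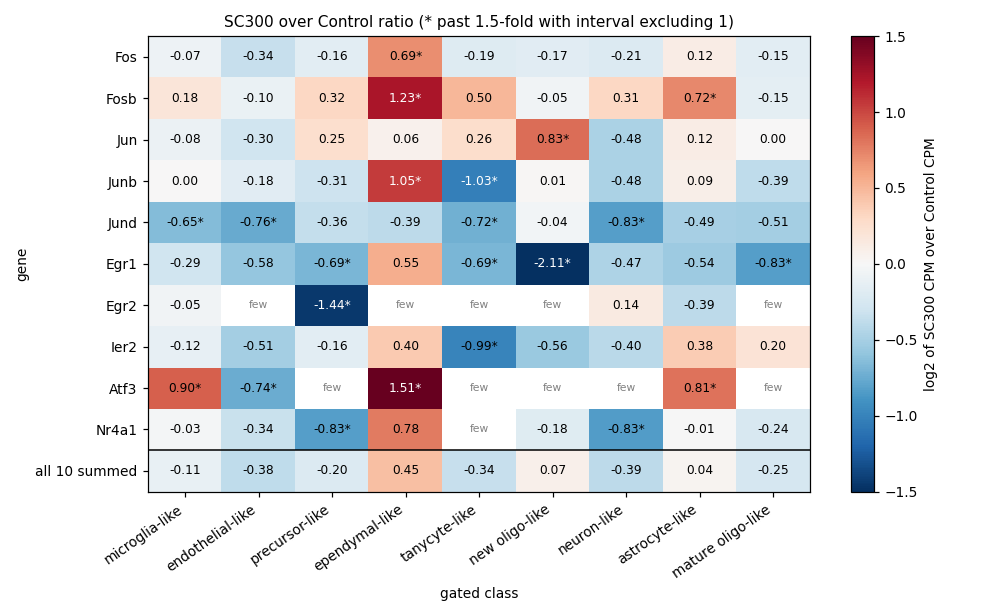
Log2 of SC300 CPM over Control CPM for each gene and class (colour and printed value), with the sum of the 10 in the bottom row; a star marks ratios past 1.5-fold whose interval excludes 1, and few marks pairs under 50 UMIs. Jund is below 0 in all 9 classes, while the ependymal column is mostly above 0 and the endothelial column below 0.

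Jund was lower in SC300 in all 9 classes, with intervals below 0 in 8 of them and a log2 range of -0.83 to -0.039. Without a fold limit, 17.1% of all genes had an interval below 0 in neuron-like and 7.86% in endothelial cell-like cells. Such shares were not taken in the other classes, for intervals above 0 or among genes with like UMI numbers. More UMIs give a narrower interval. This limits the counts by interval here and for the genes below. Over all kept barcodes Jund was at 433 and 276 CPM on 22231 and 15580 UMIs, a log2 ratio of -0.65 (95% interval -0.68 to -0.62). Past 1.5-fold were neuron-like (-0.83, interval -0.91 to -0.75), endothelial cell-like (-0.76, interval -0.84 to -0.67), tanycyte-like (-0.72, interval -0.97 to -0.47) and microglia-like cells (-0.65, interval -0.70 to -0.59). At equal depth, the share of microglia-like barcodes with Jund was 81.7% and 76.3%, and of endothelial cell-like barcodes 67.7% and 53.9%. The top 3 barcodes held at most 8.16% of the Jund UMIs in neuron-like, endothelial cell-like or microglia-like cells. The neuron-like, endothelial cell-like and microglia-like ratios stayed past 1.5-fold under each of the 11 other settings run. Its relatives were nearer to equality in microglia-like cells: Jun was at -0.085 there and Junb at -0.0017. Jun was at 0.25 in precursor-like cells, where Jund was at -0.36. Both relatives were below 0 by their intervals in neuron-like (Jun -0.48, Junb -0.48) and endothelial cell-like cells (Jun -0.30, Junb -0.18). In tanycyte-like cells Junb, at -1.03, was below Jund, and Jun was at 0.26.

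Egr1 was lower in 8 of 9 classes by its intervals and past 1.5-fold in 4. Precursor-like cells went from 1110.4 to 690.4 CPM (-0.69, interval -0.78 to -0.59) and tanycyte-like cells from 225 to 140.2 (-0.69, interval -1.05 to -0.33). In newly formed and mature oligodendrocyte-like cells, where the UMIs were few (76 and 22 in the newly formed and 117 and 87 in the mature class), the ratios were -2.11 (95% interval -2.87 to -1.41) and -0.83 (95% interval -1.25 to -0.42). There the top 3 barcodes held 68.4% and 63.6% of the newly formed class and 42.7% and 63.2% of the mature class. With at most 10% mitochondrial UMIs in a barcode the mature ratio was 0.88 and the precursor-like one -0.43. Ependymal cells went the other way, 0.55 (95% interval 0.35 to 0.75). Egr2 was near equality in microglia-like cells, -0.054 (95% interval -0.18 to 0.076), and was lower in precursor-like cells on 42 and 16 UMIs, -1.44 (95% interval -2.37 to -0.58); microglia markers there were at 35.1 and 44.7 CPM.

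Fosb was higher by its interval in 6 of 9 classes, from 0.18 in microglia-like to 1.23 in ependymal cells, and past 1.5-fold in ependymal and astrocyte-like cells (0.72, interval 0.44 to 1.01). In endothelial cell-like cells Fosb was lower by its interval (-0.10, interval -0.20 to -0.0023). Fos, measured in the same barcodes, was lower by its interval in 5 classes and higher in 2. The 2 were astrocyte-like (0.12, interval 0.025 to 0.21) and ependymal cells (0.69), where Fosb was higher too. In neuron-like cells Fosb was at 0.31 (95% interval 0.21 to 0.41) and Fos at -0.21 (95% interval -0.28 to -0.14), and in precursor-like cells Fosb was at 0.32 (95% interval 0.19 to 0.44) and Fos at -0.16 (95% interval -0.21 to -0.10). Atf3 was higher past 1.5-fold in microglia-like cells, from 742 to 1410 UMIs (0.90, interval 0.77 to 1.03), and lower in endothelial cell-like cells, from 693 to 471 UMIs (-0.74, interval -0.91 to -0.57). Ependymal (1.51, interval 0.84 to 2.19) and astrocyte-like cells (0.81, interval 0.036 to 1.62) were higher on 30 and 57 and on 22 and 43 UMIs. The astrocyte-like Atf3 call was lost with cells from clusters, 0.64 (95% interval -0.18 to 1.49) and without the 3 top barcodes, 0.84 (95% interval -0.0091 to 1.75). Nr4a1 was lower past 1.5-fold in neuron-like (-0.83, interval -1.10 to -0.58) and precursor-like cells (-0.83, interval -1.04 to -0.62), and Jun was higher in newly formed oligodendrocyte-like cells (0.83, interval 0.60 to 1.07), a ratio of 0.17 under a stricter marker gate and 0.52 under a looser one. With barcodes of at most 10% mitochondrial UMIs, the neuron-like Nr4a1 ratio was -0.037, the endothelial Atf3 ratio -0.33, the astrocyte-like Fosb ratio 0.43 and the precursor-like Nr4a1 ratio -0.58; with cells from clusters the endothelial Atf3 ratio was -0.51.

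By class, the summed ratio of microglia-like cells was close to 0, at -0.11 (95% interval -0.12 to -0.092). Single genes there ranged from -0.65 for Jund to 0.90 for Atf3, and 1 of 10 was higher and 1 lower, where 1.86% and 3.1% of all genes were. In endothelial cell-like cells all 9 genes measured were below 0 by their intervals, as were 7.86% of all genes, with a median of -0.34 beside 0.021 for all genes, and 2 of 9 were past the rule where 2.84% of all genes were lower and 4.25% higher. Neuron-like cells had 7 of 9 below 0 by their intervals, as were 17.1% of all genes, and a median of -0.47 beside -0.056, 2 being past the rule against 2.86% lower and 2.12% higher among all genes. Both shares by interval cover all genes with at least 50 UMIs, and not genes with like UMI numbers. Precursor-like cells had 3 of 9 lower, with 1.47% lower and 1.32% higher among all genes. Astrocyte-like cells had 2 of 10 higher (2.48% of all genes higher and 1.74% lower) and a median of 0.10. For newly formed oligodendrocyte-like cells it was 1 of 8 in each direction (2.31% and 2.79%), and for mature ones 1 of 8 lower (2.45%, with 1.79% higher).

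The calls in the 2 classes that line the third ventricle went in opposite directions. In ependymal cells 4 of 9 genes were higher and 0 lower, where 2.4% of all genes were higher and 4.22% lower: Fos (0.69, interval 0.61 to 0.77), Fosb (1.23, interval 1.00 to 1.46), Junb (1.05, interval 0.90 to 1.21) and Atf3. The top 3 barcodes held 28.2% of the 10 genes' UMIs in SC300 and 18.1% in Control. Without them in each library Fos was at 0.63, Fosb at 1.06, and Junb at 1.16. The Atf3 call was lost, at 0.67 (95% interval -0.18 to 1.51). Microglia markers summed to 43.4 and 33.2 CPM in this class. In tanycyte-like cells 4 of 7 were lower and 0 higher, where 6.76% of all genes were lower and 2.81% higher: Junb (-1.03, interval -1.40 to -0.67), Ier2 (-0.99, interval -1.30 to -0.69), Jund and Egr1. Fosb (0.50, interval 0.16 to 0.84) and Jun (0.26, interval 0.02 to 0.50) had intervals above 0 in the same cells. Tanycyte-like values rested on how cells were assigned. When cells were taken from clusters, the ratios were -0.052 for Junb, -0.52 for Ier2, -0.38 for Jund and -0.38 for Egr1, none past 1.5-fold.

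Among the 10 genes with the highest fold in macrophage-like cells were Mrc1 and F13a1, which also served to assign the class. These cells were too few for a ratio, with 14 barcodes in Control and 41 in SC300. Their values stood at 1595 and 4425 CPM of Fos, 38.7 and 315 of Egr2 and 387 and 1227 of Atf3. For Egr2 they were below the 288 CPM of microglia-like cells in Control. In SC300 they were above the 277 CPM of microglia-like cells, with counting intervals that overlapped. The top 3 Control barcodes held 62.2% of the 10 genes' UMIs. Fosb was at 812 and 1373 CPM in macrophage-like and 1600 and 1246 CPM in stromal-like cells, above the 521 and 592 CPM of microglia-like cells. Mural cell-like cells had 392 and 251 CPM of Atf3, of which the top 3 barcodes held 98.0% and 85%.

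Other genes of the same response were read from lists. Of 38 further rapid-response genes in the files, 30 reached 50 UMIs in endothelial cell-like cells, and 12 were lower and 2 higher (median -0.37), where 2.84% of all genes were lower and 4.25% higher. In neuron-like cells 8 of 29 were lower and 1 higher (median -0.40, beside 2.86% lower and 2.12% higher of all genes), in microglia-like cells 3 of 31 lower and 2 higher (median -0.13, beside 3.1% and 1.86%), and in ependymal cells 5 of 18 higher and 2 lower (median 0.13, beside 2.4% higher and 4.22% lower). Over all kept barcodes, those with the most UMIs were Btg2, a growth-arrest gene, at 467 and 419 CPM (log2 -0.16), Dusp1, a phosphatase that shuts off MAP kinases, at 458 and 353 CPM (log2 -0.38), and Zfp36l1, an RNA-binding protein, at 425 and 354 CPM (log2 -0.27). By class Btg2 went both ways, with log2 ratios of -0.85 in tanycyte-like, -0.59 in neuron-like, 0.30 in microglia-like and 0.41 in astrocyte-like cells. Cebpb, another bZIP factor, was lower past 1.5-fold in 3 of 6 classes, with a median of -0.49. As background, 0.796% of 8418 genes measured in at least 4 classes were lower in a share of their classes as large or larger than 3 of 6.

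Heat shock genes, which digestion is also known to induce, lay near 0 over all kept barcodes. Of 13 measured over all kept barcodes, 0 were higher and 0 lower, with a median of -0.084 beside -0.042 for all genes. There 2.43% of all genes were higher and 3.43% lower, so counts of 0 in lists this short are near the shares of all genes. The same holds for the bZIP partners, upstream kinases and factors and reference genes below. Hsp90ab1 was at 1819 and 1716 CPM (log2 -0.084), Hspa8 at 1301 and 1236 CPM (log2 -0.074) and Hspa5 at 558 and 487 CPM (log2 -0.20). By class Hspa5 ranged from -0.70 (interval -0.80 to -0.60) in precursor-like to 0.14 (interval 0.095 to 0.19) in astrocyte-like cells. Hspb1, a small heat shock protein, was higher past 1.5-fold in 3 of 6 classes, with a median of 0.54, where 0.499% of genes were higher as often. In neuron-like cells 4 of 11 genes of the neuronal activity list were lower and 0 higher, where 2.86% of all genes were lower and 2.12% higher. This list shares Nr4a2, Nr4a3, Egr3 and Egr4 with the rapid-response list, so the counts of both lists in neuron-like cells are not separate. In these cells Scg2, a granule protein gene, was at 1117 and 1295 CPM (log2 0.21, interval 0.18 to 0.25), Vgf at 331 and 353 CPM (log2 0.092, interval 0.029 to 0.15), and Nr4a2, a relative of Nr4a1, was lower at 24.9 and 8.88 CPM (log2 -1.49, interval -1.82 to -1.16). Over all kept barcodes the log2 ratios were 0.18, -0.0023 and -0.0037, Nr4a2 being at 0.29 in microglia-like and 0.75 in ependymal cells. Among 13 bZIP partners 0 were higher and 0 lower over all kept barcodes, with Atf4 at 174 and 169 CPM (log2 -0.046), Ddit3 at 81.0 and 73.9 CPM (log2 -0.13) and Mafg at 56.6 and 60.3 CPM (log2 0.091). The 13 upstream kinases and factors likewise held 0 higher and 0 lower, the MAP kinase Mapk3 being at 178 and 212 CPM (log2 0.25), Map2k2 at 150.4 and 147 CPM (log2 -0.032) and Map2k1 at 109 and 108 CPM (log2 -0.011). Of 8 reference genes 0 were higher and 0 lower over all kept barcodes; B2m was at 1441 and 1380.4 CPM (log2 -0.062), Actb at 1099.8 and 1221 CPM (log2 0.15) and Ppia at 1093 and 1037 CPM (log2 -0.075). In tanycyte-like cells, where 4 of the immediate-early genes were lower, Actb was higher at 654 and 1167 CPM (log2 0.83, interval 0.68 to 0.99), and in ependymal cells it was at 0.46.

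Across the 16 points of 8 classes in 2 libraries, each gene was compared with the mean profile of the other 9 by Pearson correlation of log2(CPM + 10). The value was highest for Junb, 0.98, and lowest for Egr2, 0.76, and Atf3, 0.82. Of 10294 other genes with at least 500 UMIs, the 8 most like the mean profile of all 10 were Sp110 (0.95), Lyn (0.94), Irf1 (0.94), Ldlrad4, Dusp6, Ppp1r15a, Cttnbp2nl and Plekha2 (0.92). Dusp6, an ERK phosphatase, and Ppp1r15a, a stress-induced phosphatase subunit, are rapid-response genes of the list above, whereas Lyn is a kinase of blood-derived cells and Irf1 an interferon factor. The points share 2 libraries and their depth, so these values describe the profiles.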

How the data were processed

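Hypothalamic tissue of female rats was sequenced as 1 Control and 1 SC300 library of single cells. The authors deposited, for each library, a filtered matrix of UMI counts per gene and barcode, made with Cell Ranger 3.0.1 per the file headers and the submitters' processing notes; no normalized values were used. Barcodes with at least 200 detected genes were kept. Each was assigned to the class with the highest marker score (log scale per 10000 UMIs, score at least 0.25 with at least 3 markers detected) when the next score was at most 0.7 of it. Counts were summed per class and library and divided by the class total (CPM). Intervals were exact (Clopper-Pearson for shares and for the division of a gene's UMIs between libraries, Poisson for levels) at 95%, and they cover counting error only. A gene was named higher or lower past 1.5-fold with an interval that excluded 1, at 50 UMIs or more. A count of 0 was given a limit of 3 UMIs. The ratio intervals and calls were checked on simulated Poisson sums of whole classes, which leave out the uneven spread of UMIs over barcodes. Doublets were called by Scrublet and left out only as an alternative. Named genes were the 10 members, the list genes lower or higher in as many classes as the rule asks, and the 3 most abundant of each list. Lists were other rapid-response, heat shock, neuronal activity, bZIP partner, upstream kinase and factor, and reference genes. The members, lists, class limits and splits were chosen with earlier results of these data known. Analyses ran in scanpy 1.11.5 and scipy 1.17.1 under Python 3.11.15. The libraries held 52004789 and 57013099 UMIs.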

Additional observations from a re-analysis of the deposited data

Results flagged for a closer look

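Junb had opposite differences in the 2 ventricle-lining classes, with log2 ratios of SC300 over Control of -1.03 in tanycyte-like and 1.05 in ependymal cells; with cell types from clusters the tanycyte-like value was -0.052 (95% interval -0.15 to 0.049). Atf3 was lower in endothelial cell-like cells (-0.74) and higher in astrocyte-like (0.81), ependymal (1.51) and microglia-like cells (0.90). Without the 3 barcodes with most UMIs of the 10 genes the intervals spanned 0 in ependymal (0.67, -0.18 to 1.51) and astrocyte-like cells (0.84, -0.009 to 1.75), and they did so in astrocyte-like cells also with clusters (0.64). These differences between classes were not tested, since each library is 1 pool of rats.

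The barcodes below 200 detected genes, which entered no comparison, still held UMIs of the 10 genes. They had 53.0 CPM in Control (33 UMIs in 192 barcodes) and 28.9 CPM in SC300 (18 UMIs in 145 barcodes), where 0 UMIs would allow up to 3. Their median mitochondrial share was 85.5% and 87.6%.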

How the results depend on the processing

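Of 229 alternative values for the 22 gene and class pairs past 1.5-fold, 228 kept their sign, 201 of them classed as the same and 27 as moved. The exception was Egr1 in mature oligodendrocyte-like cells, 0.88 with barcodes of at most 10% mitochondrial UMIs. The cause was not tested. A kept sign could still be a value near equality. Examples were Junb in tanycyte-like cells with clusters and Nr4a1 in neuron-like cells at 10% mitochondrial UMIs. A value classed as the same could also fall short of the rule. Egr1 in tanycyte-like cells was at -0.38 with clusters and -0.53 with a stricter gate. Atf3 in astrocyte-like cells had an interval that spanned 0 with clusters and without the 3 top barcodes. The 22 pairs were chosen from these same counts, so a kept sign is no separate check of them. Not every pair had a value under every setting. With at most 10% mitochondrial UMIs, 8 Control and 2 SC300 tanycyte-like barcodes were left. The same limit gave 0.32 for the sum of the 10 genes over all kept barcodes (-0.17 as reported), with 1604 and 1175 barcodes left, and 5 classes with a Jund interval below 0 instead of 8. The other values of that sum were -0.16 at 20% mitochondrial UMIs, -0.18 with a higher minimum of detected genes, -0.15 when scaled without mitochondrial, haemoglobin and ribosomal protein genes, -0.13 with median of ratios scaling, -0.22 with barcodes weighted alike and -0.21 without the 3 top barcodes. In microglia-like cells (-0.11) it was -0.086 with clusters, -0.089 and -0.081 with the 2 scalings, -0.13 with barcodes weighted alike and -0.11 at 10% mitochondrial UMIs.

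The log2 ratio of microglia-like over endothelial cell-like sums (1.24 in Control) was 1.28 with a stricter gate, 1.15 with a looser gate, 1.34 with clusters, 1.21 at 20% and 1.73 at 10% mitochondrial UMIs, 1.21 without doublets, 1.02 with the gene-restricted scaling, 1.18 with barcodes weighted alike and 1.27 without the top barcodes. In SC300 (1.51) it was 1.57, 1.44 and 1.60 with the stricter gate, looser gate and clusters, 1.62 at 10% mitochondrial UMIs, 1.31 with that scaling, 1.45 with barcodes weighted alike and 1.57 without the top barcodes.

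At 2-fold, 3 pairs were higher and 3 lower, and at 5/4-fold 28 were lower and 12 higher. No share over all genes was taken at these limits. The share of microglia-like barcodes with Fos was 93.6% and 91.5% (Control and SC300) at 4000 UMIs per barcode, and 81.7% and 79.2% with at least 2 UMIs required.

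No paired analysis was possible because each group has 1 library, and no replicate was left out for the same reason. Depth limits Egr2 and Atf3, which had under 50 UMIs in 5 of 9 classes each.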
